A study of Mus musculus with 9 samples.

Results

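The genes described are those that encode the proteins of the cytosolic ribosome in mouse vascular tissue. They were taken by name from the gene table: protein-coding genes whose symbol starts with Rpl or Rps and a digit, or is Rplp0, Rplp1, Rplp2 or Rpsa, without the Rps6k kinases and without symbols that end in -ps. Of 54532 genes in the table, 86 met the rule. By role, 43 belong to the large subunit, 3 to the stalk of the large subunit, 31 to the small subunit and 8 are paralogs of another member. The remaining gene, Rps19bp1, is caught by its name only and encodes a protein that binds Rps19, not a ribosomal protein. The mice were C57BL/6 animals of 24 weeks, and RNA of their vascular tissue was sequenced in 3 groups of 3 libraries. Every group carries ApoE-/- by its label. The SAHH-WT group is ApoE-/-/SAHHWT, the SAHH-het group is ApoE-/-/SAHH+/-, and the SAHH-het+betaine group is labelled SAHH+/- with betaine, a methyl donor. The groups are called by these labels throughout. SAHH, encoded by Ahcy, breaks down S-adenosylhomocysteine, the by-product of methylation reactions. Whether each library stands for an animal of its own is not stated by the labels, and p-values here measure only the spread between libraries, which may be technical. The labels name no vessel and no betaine dose. The question is how ribosomal protein mRNA compares across SAHH genotype and betaine.

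The cytosolic ribosome is built from a large and a small subunit, each a core of ribosomal RNA covered with proteins that are present mostly in 1 copy. The proteins of the stalk are the exception, with several copies of Rplp1 and Rplp2 anchored through Rplp0, and they recruit the translation factors. Ribosomal protein mRNAs are short and abundant, and most start with a run of pyrimidines, the TOP motif, through which mTORC1 signalling and LARP1 control their translation and stability. A protein made in excess of its partners is degraded, and free Rpl5 and Rpl11 can bind Mdm2, the inhibitor of p53.

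RefSeq promoter sequence of GRCm38.p6, from 250 bases before the annotated start to 50 bases after it, was matched by symbol for 66 of the 86 genes. The starts of 5 genes whose values are described below, and of the muscle paralog Rpl3l, are shown from 60 bases before the start through the first 30 transcribed bases, on the strand of the gene. Capitals mark a match to any of 5 motifs, the ETS motif CCGGAAG, the YY1-like motif AAGATGG, the E-box CACGTG and the TATA motif TATAAA on both strands, and the pyrimidine tract CTCTTTC on the sense strand.
Rpl28, chr7:4792905-4792994, plus strand: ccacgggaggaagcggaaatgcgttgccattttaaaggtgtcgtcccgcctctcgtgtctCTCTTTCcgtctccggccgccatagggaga
Rpl11, chr4:136053364-136053453, minus strand: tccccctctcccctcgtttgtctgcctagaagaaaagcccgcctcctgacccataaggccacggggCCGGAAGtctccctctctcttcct
Rplp2, chr7:141447591-141447680, plus strand: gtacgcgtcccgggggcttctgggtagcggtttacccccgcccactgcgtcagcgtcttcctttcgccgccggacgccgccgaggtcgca
Rps28, chr17:33824533-33824622, minus strand: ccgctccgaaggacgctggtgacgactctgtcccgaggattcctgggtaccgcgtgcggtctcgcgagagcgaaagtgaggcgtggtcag
Rpl35a, chr16:33056393-33056482, plus strand: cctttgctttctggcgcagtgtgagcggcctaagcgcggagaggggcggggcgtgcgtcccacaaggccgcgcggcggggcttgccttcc
Rpl3l, chr17:24727766-24727855, plus strand: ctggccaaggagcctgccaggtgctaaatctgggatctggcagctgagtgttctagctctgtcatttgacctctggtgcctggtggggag

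In the 300-base promoters the ETS motif was found in 26 of the 66 ribosomal protein genes (39.4%) and in 9.93% of all 27025 genes with a promoter. The pyrimidine tract CTCTTTC was found in 13 of 66 (19.7%) against 4.60% of all. The YY1-like motif was in 10 (15.2%, all genes 7.28%), the E-box in 6 (9.09%, all genes 8.09%) and TATAAA in 7 (10.6%, all genes 15.7%). None of these motifs contains another, and a match is a description of the letters, not a bound site.

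Expression is given in FPKM, as the authors deposited it. Fragments were scaled by exon length and by a factor per library that followed median-of-ratios size factors, not library totals. From the steps between the FPKM values, 15837573 to 17381971 fragments per library were recovered. Ahcy, the gene of the targeted enzyme, was 11.5, 7.17 and 7.98 FPKM in the SAHH-WT libraries, 3.48, 3.89 and 4.75 in those labelled SAHH-het, and 7.66, 9.70 and 8.63 in those labelled SAHH-het+betaine. The betaine libraries carry the heterozygous label but lay within the SAHH-WT range, so this gene goes against their label. Apoe was 2.91 to 6.11 FPKM in SAHH-WT and 5.51 to 8.88 in SAHH-het+betaine but 149 to 225 in SAHH-het, although all groups are labelled ApoE-/-; what a remaining transcript shows depends on which part of the gene was removed, and the sources used here do not say. Smooth muscle markers, the defining genes of an artery wall, were present in all libraries, with a sum over 6 genes of 60.2 to 215 FPKM. Markers of neighbouring tissue varied more within groups: brown adipocyte genes summed to 429 to 11882 FPKM, skeletal muscle genes to 3.17 to 8418, and adrenal cortex genes to 9351 in SAHH-WT replicate 1 and at most 5.38 elsewhere. In such bulk tissue, fewer cells of a type and less RNA per cell cannot be told apart.

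Of the 86 genes, 55 averaged at least 100 FPKM over the 9 libraries, 25 averaged 10 to 100, 3 averaged 0.5 to 10 and 3 were under 0.5 FPKM, the minimum for testing. The FPKM divide by the length of all annotated exons of a gene, which was 1 to 9.80 times that of its main transcript, with a median of 2.35. The order of levels between genes depends on that choice. In FPKM, Rplp1, a stalk protein, was highest with a mean of 1072 FPKM, followed by Rpl36 of the large subunit at 636.0, Rps15 of the small subunit at 561, Rps3a1 of the small subunit at 548 and Rplp0, the base of the stalk, at 458. Rplp1 was 939, 1066 and 885 FPKM in SAHH-WT, 1484, 1654 and 924 in SAHH-het, and 910, 920 and 869 in SAHH-het+betaine. It was highest in SAHH-het replicates 1 and 2, while SAHH-het replicate 3 lay among the other groups. Small subunit genes had a median of 189 FPKM and large subunit genes of 131. Per length of the main transcript, a scale chosen after seeing the data, Rps14 of the small subunit came first at 1115, before Rplp1 at 1072, Rpl41 at 1032 and Rplp2 at 954. The medians on that scale were 437 for the small and 331 for the large subunit.

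A few members were listed far below their partners. Rpl24 averaged 2.16 FPKM, Rps10 averaged 1.08 and Rpl13a averaged 7.69, although each encodes a protein of every ribosome. For these genes 80.9%, 90.1% and 56.3% of the 75-base stretches of the transcript also occur in other annotated genes. Reads from such stretches have more than 1 possible origin, and the sources used here do not say how the authors assigned them, which leaves these levels uncertain. Shared sequence was common beyond these genes, reaching 91.9% in Rpl10 and 98.5% in Rps27, which were listed at 202 and 204 FPKM. Rps27rt, a retrotransposed copy of Rps27, was listed at a mean of 247 FPKM, with 90.3% of its stretches shared. The rows of symbols that end in -ps, pseudogene copies that were left out, summed to 1585 to 2379 FPKM per library, beside 11911 to 19722 FPKM for the 86 genes. The starts of Rps27 and Rps27rt show the copy, with the longest stretch that the windows share in capitals, 29 bases long and beginning at or next to the annotated start.
Rps27, chr3:90213619-90213708, minus strand: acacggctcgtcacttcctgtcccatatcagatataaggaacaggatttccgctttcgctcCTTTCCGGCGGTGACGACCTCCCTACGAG
Rps27rt, chr9:114982710-114982799, minus strand: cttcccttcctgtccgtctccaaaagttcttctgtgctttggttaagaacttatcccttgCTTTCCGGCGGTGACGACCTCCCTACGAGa

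The levels of the ribosomal protein genes varied together from library to library. Each gene was divided by its own mean over the 9 libraries, for the 80 members that averaged 10 FPKM or more. The median ratio was 0.99, 1.12 and 0.92 in the SAHH-WT libraries, 1.27, 1.28 and 0.85 in the SAHH-het libraries and 0.85, 0.85 and 0.81 in the SAHH-het+betaine libraries. On the FPKM scale SAHH-het replicates 1 and 2 thus stood above all others. SAHH-het replicate 3 lay with the betaine libraries, and the betaine libraries were close to each other. As a share of all recovered fragments, the members were 2.89, 2.79 and 2.05% in SAHH-WT and 2.47, 3.30 and 1.68% in SAHH-het. With betaine the share was 1.91, 1.61 and 1.44%. By this share SAHH-het replicate 1 lay below SAHH-WT replicates 1 and 2, so the order depends on the scaling. SAHH-het replicate 2 held the highest value of 33 of the 80 genes and replicate 1 of 23, while SAHH-het+betaine replicate 3 held the lowest value of 32. The median correlation between pairs of members over the 9 libraries, which share their library scaling, was 0.67. The standard deviation of a gene's log2 level over the libraries had a median of 0.32, and of 0.21 once each library's member median was taken off.

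**Figure D1:**
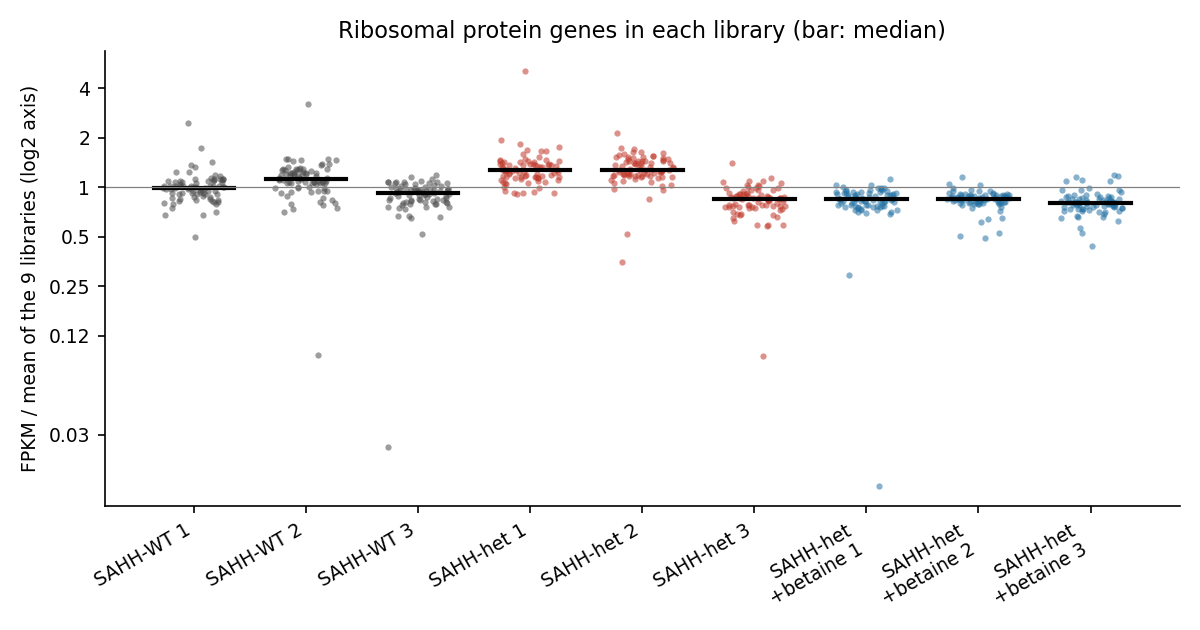
Ratio of each gene's FPKM to its mean over the 9 libraries (log2 axis), for the 80 ribosomal protein genes that averaged 10 FPKM or more; each point is a gene and the bar is the library's median. The medians of SAHH-het replicates 1 and 2 are 1.27 and 1.28, and those of SAHH-het replicate 3 and the betaine libraries are 0.81 to 0.85; the lowest and highest points are Rpl3l.

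Some members kept almost exactly to the common level. Among the same 80 members, the 5 with the least spread around the library median were Rps25 (SD 0.07 on the log2 scale), Rpl31 (0.08), Rpl27 (0.08), Rps18 (0.10) and Rpl14 (0.10). Rps25, a small subunit protein used by some viral internal ribosome entry sites, was 119, 121 and 97.5 FPKM in SAHH-WT, 151, 126 and 92.7 in SAHH-het, and 84.5, 99.6 and 91.8 in SAHH-het+betaine. The 5 of these 80 with the most spread were Rpl3l (2.08), Rps27rt (0.91), Rpl17 (0.62), Rps27a (0.45) and Rps27l (0.44), of which 3 are paralogs.

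By its labels, SAHH-het against SAHH-WT asks what loss of an Ahcy allele goes with. Apoe differs between these libraries as well, as given above, so loss of an Ahcy allele and a difference at Apoe cannot be told apart here. No ribosomal protein gene was called (limma, Benjamini-Hochberg adjusted p under 0.05), higher or lower, and the smallest adjusted p was 0.357. Over all 15610 genes tested, 0.0256% were called higher and 0% lower. At an unadjusted p under 0.05, 7 of the 83 tested members were higher in the libraries labelled SAHH-het and 0 lower, against 7.3% and 5.16% of all genes. The 7 are 8.43% of the members, near the background. They were Rps29, Rplp2, Rpl36, Rpl28, Rpl11, Rps28 and Rpl38. The 3 libraries of each group did not overlap for 7 members with the SAHH-het libraries higher and 0 lower, where all genes gave 8.33% and 8.28%. The median log2 change was 0.11, with 53 of 83 above 0 (50.9% of all genes) and 30 below (49.1%), and the median over all genes was 0.01.

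Rps29, a zinc-binding protein of the small subunit on chromosome 12 (69157722 to 69159186, GRCm38), was 243, 259 and 244 FPKM in SAHH-WT and 517, 527 and 311 in SAHH-het. All SAHH-het values lay above all SAHH-WT values, with replicate 3 the nearest. The log2 difference was 0.82 ± 0.26 (SE, n = 3 a group; limma, adjusted p = 0.357). Rpl36, on chromosome 17, was 504, 475 and 422 FPKM in SAHH-WT and 1053, 1007 and 630.2 in SAHH-het, again apart, with a log2 difference of 0.91 ± 0.31 (limma, adjusted p = 0.358). Rplp2, whose start is shown above, was 96.5, 179 and 174 FPKM in SAHH-WT and 265, 334 and 212 in SAHH-het. The low value of SAHH-WT replicate 1 adds to its log2 difference of 0.88 ± 0.30. Rpl28 was 147, 130.4 and 119 FPKM against 238, 260.0 and 159, a log2 difference of 0.70 ± 0.24. Rpl11, a partner of Rpl5 in the 5S particle, was 120.1, 112 and 99.0 FPKM in SAHH-WT and 165, 173 and 142 in SAHH-het, a log2 difference of 0.53 ± 0.19. Rpl5 itself was 89.9, 130.3 and 86.3 FPKM against 97.6, 105 and 70.5, so its groups overlapped.

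Other SAHH-het values were lower, and none of these passed even unadjusted. The 5 with the smallest p were Rpl17, Rps27rt, Rps7, Rps15a and Rpl12, with log2 differences of -0.72, -0.96, -0.28, -0.27 and -0.29. Rpl17, which lines the exit tunnel for the new protein, was 267, 139 and 93.5 FPKM in SAHH-WT and 104, 116 and 64.4 in SAHH-het, and most of its difference lies in SAHH-WT replicate 1. That library is also the one with adrenal cortex markers; their part in the result was not tested.

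The picture depended on SAHH-het replicate 3. Without it the median log2 change was 0.34, with 70 of 83 above 0 and 15 at an unadjusted p under 0.05 higher. For alternative runs such as this, the share of all genes at that p was not taken, so their counts lack a background. Without SAHH-het replicate 1 the median was 0.03 and without replicate 2 it was 0.02, with 2 members each higher at that p. Leaving out SAHH-WT replicate 3 also left 2, and leaving out SAHH-WT replicate 2 raised the median to 0.22. Deviations of SAHH-WT libraries correlated weakly with those of the SAHH-het libraries of the same number (0.18 to 0.29), a pairing that no label states. Differently numbered SAHH-het and betaine libraries reached 0.39, so these correlations do not establish a pairing. With the number as a block in SAHH-WT and SAHH-het, 11 members were higher at an unadjusted p under 0.05 and 0 were called. Rescaling every library to the same FPKM sum (TPM) took the median of all genes from 0.01 to -0.28 and turned the split to 26 above and 57 below 0, with a member median of -0.20; relative to all genes the member median was then 0.08, against 0.10 before.

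**Figure D2:**
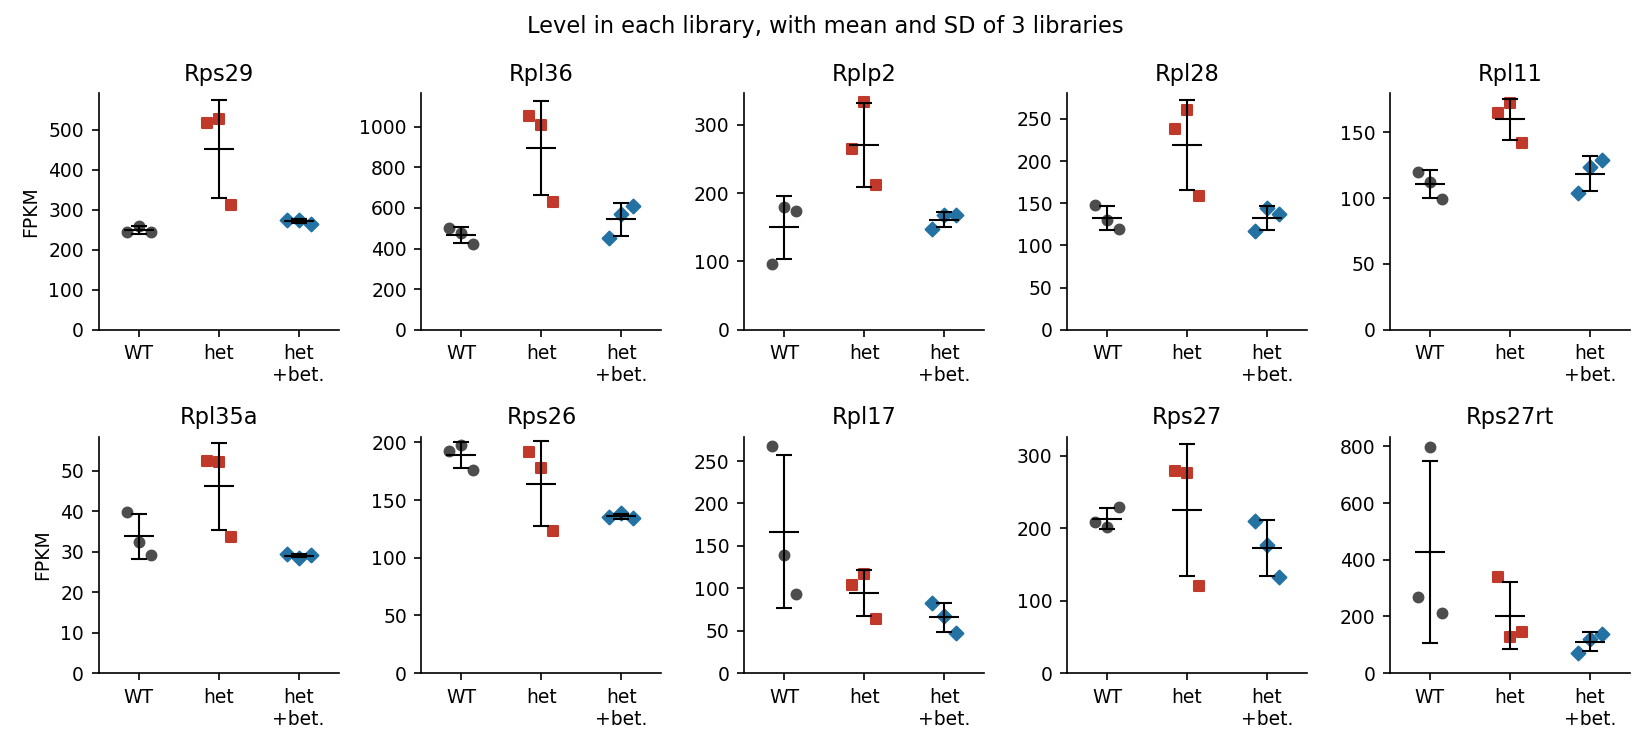
FPKM of 10 members in each of the 9 libraries, by group (WT, SAHH-WT; het, SAHH-het; het+bet., SAHH-het+betaine), with the mean and SD of 3 libraries; each axis starts at 0. Rps29, Rpl36, Rplp2, Rpl28 and Rpl11 are higher in all SAHH-het than in all SAHH-WT libraries, and SAHH-het replicate 3 is the lowest of its group in all 5.

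By its labels, SAHH-het+betaine against SAHH-het asks what betaine goes with on the heterozygous genotype. Ahcy and Apoe differ between these libraries as given above, at about the SAHH-WT level in those labelled betaine, so betaine and a difference in genotype cannot be told apart here. Nearly all ribosomal protein genes were lower in the libraries labelled SAHH-het+betaine, by a modest amount, and none was called. The median log2 change was -0.41, with 79 of 83 below 0 (50.8% of all genes) and 4 above (49%), while the median of all genes was -0.01. The smallest adjusted p was 0.559 (limma), with 0% of all genes called higher and 0.0192% lower. At an unadjusted p under 0.05, 13 members (15.7%) were lower and 0 higher, against 4.4% and 3.63% of all genes. For 26 members (31.3%) the betaine libraries all lay below the SAHH-het libraries and for 0 above, against 8.16% and 8.21% of all genes. By role, 40 of 43 large subunit genes, all 31 small subunit genes and all 3 stalk genes had a negative change, with medians of -0.40, -0.42 and -0.55.

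The 5 smallest p belonged to Rpl35a, Rpl28, Rps29, Rpl37 and Rpl23, all proteins of the large subunit but Rps29. Rpl35a, a gene mutated in human Diamond-Blackfan anaemia, was 52.5, 52.3 and 33.7 FPKM in SAHH-het and 29.3, 28.5 and 29.3 in SAHH-het+betaine. The betaine values lay within 1 FPKM of each other and below all SAHH-het values, with a log2 difference of -0.63 ± 0.21 (SE, n = 3 a group; limma, adjusted p = 0.559). Rpl28 was 117, 144 and 137 FPKM with betaine, below its SAHH-het values given above, at -0.70 ± 0.24. Rps29 was 275, 274 and 265 FPKM with betaine, at -0.69 ± 0.26. These betaine values of Rps29 lay below every SAHH-het value but above every SAHH-WT value. The log2 difference was -0.60 for Rpl37 and -0.58 for Rpl23. Rpl38, needed in mouse for translation of some Hox mRNAs, was 482, 402 and 228 FPKM in SAHH-het and 201, 209 and 214 with betaine.

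A handful of genes went the other way without passing. Rpl24 had a log2 change of 0.31, Rpl23a of 0.18, Rpl15 of 0.08 and Rpl7l1 of 0.05, with groups that overlapped. Rpl23a was 170.1, 178 and 163 FPKM in SAHH-het and 168, 212 and 201 with betaine. It had 81.7% of its 75-base stretches in other genes, and Rpl24 is a gene of uncertain level as above.

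SAHH-het replicates 1 and 2 carried this difference. Without replicate 3, which resembles the betaine libraries, the median was -0.60 and 44 members were lower at an unadjusted p under 0.05, of which 0 were called. The share of all genes at that p was again not taken, so this count has no background. Without replicate 1 the median was -0.30 and without replicate 2 it was -0.31, with 1 and 0 members at that p. Leaving out the betaine replicates in turn left 1, 3 and 2. Under TPM rescaling 81 members were below 0 and 2 above, with a median of -0.49. Fibroblast markers moved with the SAHH-het group, with a sum over 5 genes of 58.2 to 85.6 FPKM in SAHH-het against 107 to 176 in SAHH-WT and 137 to 164 with betaine, and 0 markers at 0. Endothelial markers summed to 210 to 489 FPKM in SAHH-het and 128 to 234 with betaine. All 5 B cell markers had a positive log2 change with betaine (median 1.54), with sums of 77.6 to 135 FPKM in SAHH-het, 133 to 628 with betaine and 44.9 to 2016 in SAHH-WT. All 4 T cell markers did too (median 1.49), with sums of 2.59 to 4.23, 3.87 to 33.8 and 1.83 to 39.4 FPKM. Their part in the ribosomal protein difference was not tested.

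The third comparison, SAHH-het+betaine minus SAHH-WT, shares its libraries with the other 2. The median log2 change of the members was -0.29, with 67 of 83 below 0 (52.1% of all genes) and 16 above (47.9%), and the median of all genes was -0.02. No member was called (smallest adjusted p = 0.618, limma), and 0% of all genes were called either way. At an unadjusted p under 0.05 there were 2 lower members, Rps27rt and Rpl17, and 0 higher, where all genes gave 2.93% and 5.09%. Non-overlap was more frequent than such p-values: for 32 members (38.6%) all betaine libraries lay below all SAHH-WT libraries and for 1 member, Rps29, above, against 7.64% and 9.29% of all genes. Under TPM rescaling, which took the median of all genes from -0.02 to -0.39, 83 of 83 were below 0 with a median of -0.68; relative to all genes the median was -0.30, against -0.26 before.

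Rps26, a small subunit protein beside the mRNA exit channel, was 193, 198 and 176 FPKM in SAHH-WT, 192, 178 and 123 in SAHH-het, and 135, 138 and 134 with betaine. The betaine libraries were alike and below all SAHH-WT libraries, and the log2 difference from SAHH-WT was -0.47 ± 0.22 (SE, n = 3 a group; limma, adjusted p = 0.618). Rps6, the small subunit protein phosphorylated by S6 kinase, was 261, 348 and 274 FPKM in SAHH-WT, 282, 330.0 and 187 in SAHH-het, and 227, 207 and 187 with betaine. Its betaine values lay below all SAHH-WT values. Rplp0 was 432, 570 and 465 FPKM in SAHH-WT and 397, 413 and 365 with betaine, also apart. Rpsa, known too as a laminin receptor, was 198, 306 and 252 FPKM in SAHH-WT, 331, 276 and 180.0 in SAHH-het, and 201, 188 and 191 with betaine, with groups that overlapped. Rpl17 was 82.5, 66.8 and 47.7 FPKM with betaine, below all SAHH-WT values, at a log2 difference of -1.24 ± 0.41. Rps15a and Rpl6 differed by -0.53 and -0.47. The 5 members with the smallest p in the other direction, Rpl36, Rpl24, Rpl7l1, Rpl11 and Rplp2, had log2 differences of only 0.10 to 0.21.

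The ribosomal protein genes are short, and the log2 change of all genes varied with exon length. Their median exon length, over all annotated exons of a gene, was 1770 bases, against 3714 for all genes tested. A smoothed trend of log2 change on exon length, fitted on all other genes, was 0.18 at 1770 bases for SAHH-het minus SAHH-WT. The members' median change of 0.11 lies under it: 40 of 83 were above the trend at their own length and 43 below, with a median distance of -0.01. For SAHH-het+betaine minus SAHH-het the trend was -0.10 at that length, and 79 of 83 members lay below it, at a median distance of -0.34. For SAHH-het+betaine minus SAHH-WT the trend was 0.03, and 70 lay below it and 13 above, at a median distance of -0.31. The members thus lay about the trend in the first comparison and mostly below it in both comparisons with betaine. With the length trend taken off each library, 5 members were higher at an unadjusted p under 0.05 in the first comparison, 2 lower in the second and 3 lower in the third, and 0 were called. For these counts too the share of all genes was not taken.

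**Figure D3:**
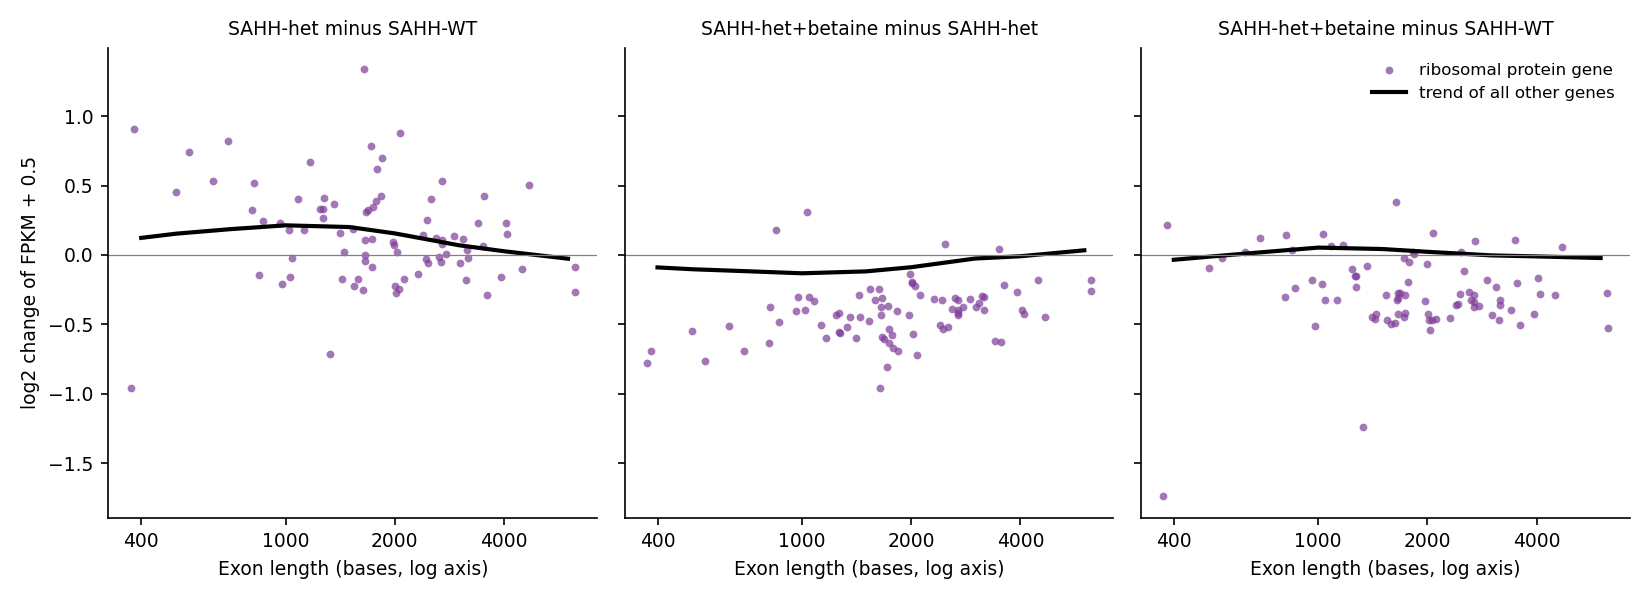
log2 change of each of the 83 tested ribosomal protein genes (points) against its exon length in bases (log axis), for the 3 comparisons, with the trend of all other tested genes (line). The points straddle the line in the first comparison (40 above, 43 below) and lie mostly below it in the second (79 of 83) and the third (70 of 83).

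Within the members, the median change followed coding length in the first comparison and, in the opposite direction, in the second, but not in the third. The first and second share the SAHH-het libraries with opposite sign. A length pattern in those libraries thus appears in both, reversed, and the second is not a separate observation. The 11 members with coding sequence under 300 bases had a median log2 change of 0.33 in SAHH-het minus SAHH-WT, the 29 members from 300 to under 450 bases of 0.23, the 17 from 450 to under 600 of 0.18, and the 23 of 600 or more of -0.03. For SAHH-het+betaine minus SAHH-het the medians were -0.60, -0.43, -0.43 and -0.32, and for SAHH-het+betaine minus SAHH-WT they were -0.28, -0.20, -0.29 and -0.35. Over the 80 members that averaged 10 FPKM or more, Spearman's rho between change and coding length was -0.32, 0.37 and -0.19 in the 3 comparisons, as a description of genes that share the same libraries. It was -0.31, 0.38 and -0.18 for transcript length and -0.28, 0.36 and -0.18 for exon length, so coding length did not stand out. The shortest are Rpl41 with 75 coding bases, Rpl39 with 153, Rps29 with 168, Rps28 with 207 and Rpl38 with 210. Rpl41 was 261, 385 and 305 FPKM in SAHH-WT, 494, 656 and 379 in SAHH-het, and 274, 366 and 353 with betaine. Rps28 was 65.4, 46.4 and 43.9 FPKM in SAHH-WT, 87.4, 139 and 56.9 in SAHH-het, and 52.8, 46.8 and 51.4 with betaine. Rpl39, equally short, was 151, 183 and 121 FPKM in SAHH-WT, 161, 159 and 89.9 in SAHH-het, and 117, 112 and 96.5 with betaine.

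The paralogs behaved less uniformly than the core proteins. Rpl3l replaces Rpl3 in ribosomes of skeletal and cardiac muscle. It was 20.4, 1.12 and 0.307 FPKM in SAHH-WT, 59.1, 4.12 and 1.10 in SAHH-het, and 0.180, 6.13 and 12.9 with betaine. Values varied widely within each group, and the groups overlapped. The sum of 5 skeletal muscle markers in the same libraries was 2211, 17.0 and 6.51 FPKM, then 8418, 549 and 3.17, then 4.67, 938 and 1196. The 5 libraries with the most marker RNA were the 5 with the most Rpl3l. In these 5, Rpl3l was 6.53 to 10.8 FPKM per 1000 FPKM of marker sum. In the remaining libraries, with marker sums of 3.17 to 17.0 FPKM, it was 38.6 to 347, so the ratio was not constant. Rpl3 itself, at 98.7 to 163 FPKM, did not follow the order of the skeletal muscle markers. Cardiac muscle markers summed to 774 FPKM in SAHH-WT replicate 2, where Rpl3l was 1.12. They summed to 1017 in SAHH-het+betaine replicate 2, where Rpl3l was 6.13. In FPKM, Rpl3l reached 51.8% of Rpl3 in SAHH-het replicate 1 and was 0.161% of it in SAHH-het+betaine replicate 1.

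**Figure D4:**
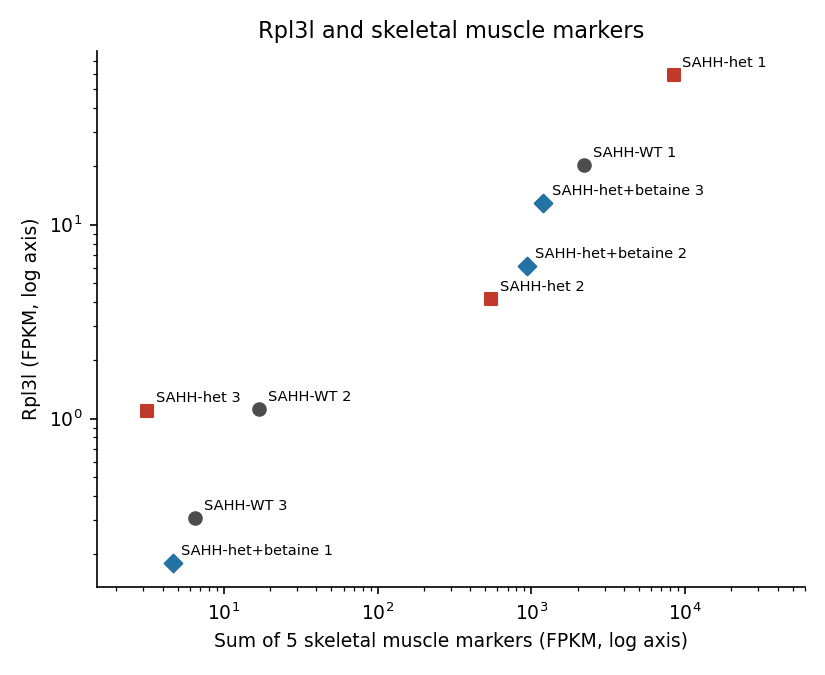
Rpl3l against the summed level of 5 skeletal muscle markers in each of the 9 libraries, both in FPKM on log axes, with symbols by group. The 5 libraries with a marker sum of at least 549 FPKM are those with at least 4.12 FPKM of Rpl3l, and they come from all 3 groups.

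The retrocopy Rps27rt was 270, 797 and 214 FPKM in SAHH-WT, 338, 128 and 144 in SAHH-het, and 72.6, 121 and 139 with betaine. A value in SAHH-WT replicate 2 stands far above the rest, and its betaine values all lie below the SAHH-WT values, at a log2 difference of -1.74 ± 0.57 (SE, n = 3 a group; limma, adjusted p = 0.618). Rps27, the source gene, was 209, 202 and 230 FPKM in SAHH-WT, 279, 276 and 120 in SAHH-het, and 209, 177 and 133 with betaine. With so much shared sequence, the split between both is uncertain, and their sum was 478, 999 and 443 FPKM, then 617, 404 and 264, then 282, 298 and 272. Rps27l, a separate paralog induced by p53, shares 12% of its stretches with other genes. It was 91.3, 106 and 143 FPKM in SAHH-WT, 229, 116 and 154 in SAHH-het, and 94.2, 123 and 162 with betaine, so its groups overlapped.

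Rpl22l1, the paralog of Rpl22, was 14.9, 10.3 and 6.72 FPKM in SAHH-WT, 12.2, 12.7 and 7.88 in SAHH-het, and 10.02, 9.85 and 9.13 with betaine. Its FPKM stood at 12.5 to 23.8% of that of Rpl22 over the 9 libraries, a share that depends on the exon lengths. Rpl7l1, a nucleolar relative of Rpl7, was 15.9 to 23.6 FPKM in the 9 libraries and 8.18 to 16.2% of Rpl7. The log2 ratio of each of these 4 paralogs (Rpl3l, Rpl22l1, Rps27l and Rpl7l1) to its main gene was compared between groups by exact two-sided permutation tests, 12 in all. With 3 libraries a group no p under 0.1 is possible. That smallest value was reached only by Rpl22l1 in SAHH-het+betaine minus SAHH-het (log2 ratio -2.44 ± 0.08 against -2.61 ± 0.11, SD, n = 3, exact permutation p = 0.1, adjusted 0.857). The remaining paralogs were not tested for low values: Rpl36al averaged 0.307 FPKM, Rpl39l 0.287 and Rpl10l, a testis gene in mouse, was listed at 0 in every library.

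Fau and Rack1 encode ribosomal proteins that the naming rule leaves out, and they were looked at beside the members. Fau, whose product is cut into a small subunit protein, was 245, 336 and 267 FPKM in SAHH-WT, 429, 569 and 293 in SAHH-het, and 296, 235 and 234 with betaine. Its pattern over the libraries was that of the members, with SAHH-het replicates 1 and 2 on top, and its log2 difference with betaine was -0.71 (limma, adjusted p = 0.61). Rack1, a small subunit scaffold protein, was 79.9, 106 and 75.3 FPKM, then 81.7, 107 and 62.4, then 69.7, 66.8 and 58.8, below all SAHH-WT values with betaine.

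Among related gene lists, none had a called member in any comparison, so their values are given as counts and medians. Of 77 tested mitochondrial ribosomal protein genes, whose products serve the separate ribosome of mitochondria, 74 had a positive log2 change in SAHH-het minus SAHH-WT (median 0.50) and 74 in SAHH-het+betaine minus SAHH-WT (median 0.40). At an unadjusted p under 0.05, 22 were higher in SAHH-het, against 7.3% of all genes. Mrps12 was at 32.8 against 14.8 FPKM as group means. The list's median in SAHH-het+betaine minus SAHH-het was -0.13. The cytosolic and the mitochondrial ribosomal protein genes thus had medians of opposite sign against SAHH-WT in the betaine group. All 20 oxidative phosphorylation genes, which are shorter than the members, with a median exon length of 1181 bases, had positive changes in both comparisons with SAHH-WT, with medians of 1.17 and 0.75, and 19 of 20 negative ones with betaine against SAHH-het, at -0.51. Over the 3 comparisons, in the order in which they were described, the 4 brown adipocyte markers had median log2 changes of 1.92, 0.13 and 1.47, and the 5 skeletal muscle markers of 2.15, -0.44 and 1.64. The skeletal muscle medians had the sign of both lists in all 3 comparisons and the brown adipocyte medians in 2. Endothelial medians (0.77, -0.67 and 0.09) also had it in all 3, as did the only hepatocyte marker tested. Smooth muscle and white adipocyte medians had it in 2. Cardiac muscle medians (-3.18, 2.94 and -0.20) and those of B and T cells had the opposite sign in all 3. The fibroblast, macrophage and adrenal cortex lists matched less often. The 3 comparisons share libraries, so these signs are not independent. By library, the oxidative phosphorylation sum was lowest in SAHH-WT replicate 1 (2563 FPKM), with 429 for brown adipocyte and 2211 for skeletal muscle markers. It was 11581 in SAHH-het replicate 3, with 8741 and 3.17, and 7231 in SAHH-WT replicate 3, with 9573 and 6.51. SAHH-het replicate 1 had the highest sum, 15328.5 FPKM, with 11520 and 8418. The part of any tissue was not tested.

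Elongation factors and other mRNAs known to carry a TOP motif followed the members in part. Of 18 genes, 17 were lower in SAHH-het+betaine than in SAHH-WT, with a median of -0.23, and 14 were lower than in SAHH-het, with a median of -0.25. Npm1, a nucleolar chaperone of ribosome assembly, was 47.6 FPKM with betaine, 47.3 in SAHH-het and 65.0 in SAHH-WT as group means. Eef1d, a subunit of the elongation factor exchange complex, had a log2 change of -0.59 with betaine against SAHH-het. Initiation factors had medians of 0.12, 0.01 and 0.04 in the 3 comparisons over 30 genes, and ribosome biogenesis factors of -0.08, -0.04 and -0.06 over 30. RNA polymerase I genes, which serve ribosomal RNA synthesis, had -0.07, -0.05 and -0.22 over 12.

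Genes of mTORC1 and of TOP mRNA control had the opposite sign to the ribosomal protein genes with betaine. Of 16, 15 had a positive change in SAHH-het+betaine minus SAHH-WT, with a median of 0.42, and 7 were higher at an unadjusted p under 0.05, against 5.09% of all genes. In SAHH-het+betaine minus SAHH-het, 12 were positive, with a median of 0.18. In SAHH-het minus SAHH-WT, 12 were also positive, with a median of 0.22, the same sign as the members' median there. Mtor, the kinase, averaged 25.4 FPKM with betaine and 9.44 in SAHH-WT (log2 difference 1.42, limma, adjusted p = 0.618), and Deptor, its inhibitor, averaged 37.9 against 14.5. In SAHH-het minus SAHH-WT, Eif4ebp1, the translation repressor that mTORC1 switches off, averaged 109 against 49.6 FPKM. These genes are long, with a median exon length of 6306.5 bases, and their median distance from the exon length trend was 0.43 in SAHH-het+betaine minus SAHH-WT. These are mRNA levels, and the activity of the kinase was not measured.

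**Figure D5:**
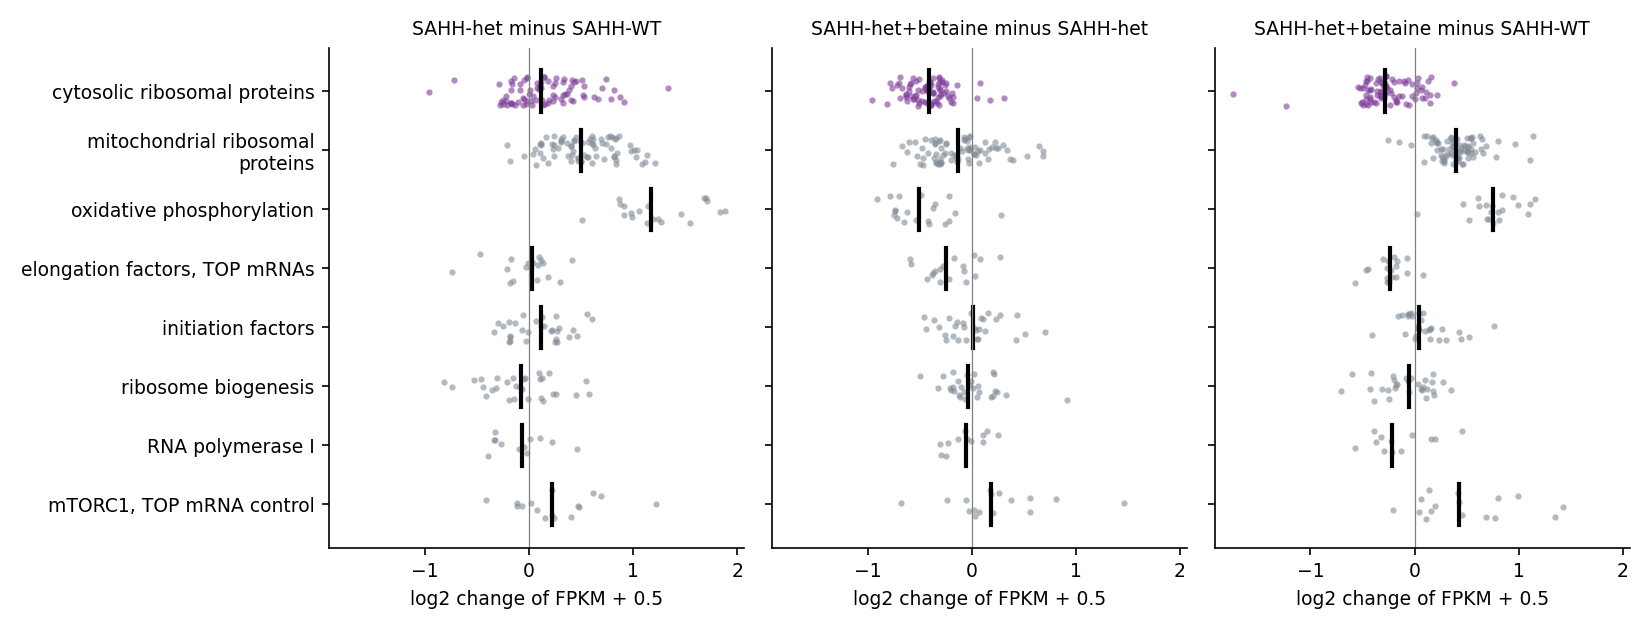
log2 change of each tested gene (points) by list for the 3 comparisons, with the list's median (bar). The cytosolic ribosomal protein genes have medians of 0.11, -0.41 and -0.29, and the mitochondrial ribosomal protein genes 0.50, -0.13 and 0.40.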

How the data were processed

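Total RNA of 9 vascular tissue libraries was sequenced. Per the submitters' processing notes, HISAT2 2.0.5 and mm10 were used; these notes name no read counter or annotation. The FPKM were deposited by the authors, 1 column per library. Symbols, biotypes and exon lengths came from GENCODE M21 on GRCm38, the assembly of mm10, which matched 54495 of 54532 identifiers. Recovery of fragments gave whole numbers within 0.1 for 97.1 to 97.3% of values. The divisor behind the FPKM followed median-of-ratios size factors to within 0.812%, not library totals.

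FPKM are not counts, so the main test was limma 3.58.1 in R 4.3.3 (eBayes with trend, two-sided) on log2(FPKM + 0.5), with the means of 3 groups in 1 fit of 9 libraries (6 residual degrees of freedom) and genes that averaged 0.5 FPKM or more. The pseudocount understates changes of low genes. Benjamini-Hochberg adjustment ran over all 15610 genes. The trend on log2 exon length was a lowess curve with span 0.3. limma with voom on the recovered fragments called 0 members and 4, 2 and 0 genes in the 3 comparisons. The fit and the length correction were checked on simulated data. There, genes were drawn independently and no gene's spread exceeded the median spread, an easier case than the real libraries.

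The members and lists were chosen with earlier results of these data known. The named genes were, per comparison and direction, the 5 members with the smallest p, the 5 highest levels, the 5 largest and smallest spreads, all paralogs with their main genes, members named by role, and up to 2 genes per related list. Rps28, Rpl38, Rpl41, Rpl39, Rpl10, Rps14 and the genes of the label and tissue checks were named after their values were seen. The replicate numbers pair SAHH-WT with SAHH-het libraries by the data alone, with correlations of same-numbered deviations of 0.29, 0.23 and 0.18; the other same-numbered pairs gave -0.35 to 0.08. Alternatives were other pseudocounts (0.1 and 1), filters, scalings, blocks and left-out libraries. Python 3.11.15 with pandas 2.3.3 and matplotlib 3.10.9 prepared tables and figures. The values of 1 gene of a related list are not reported here.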

Additional observations from a re-analysis of the deposited data

How the results depend on the processing

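No ribosomal protein gene was called in any comparison under any alternative run. Of all genes, 4 were called between SAHH-het and SAHH-WT (the first comparison), 3 between SAHH-het+betaine and SAHH-het (the second) and 0 between SAHH-het+betaine and SAHH-WT (the third). In the first the count was 7 without a filter on low values, 2 under TPM rescaling, 1 with the replicate block over all groups, with or without the exon length correction, and 1 with only the 2 groups compared. In the second it was 1 with the replicate block, with or without the exon length correction, and in the third it was 3 without the filter. A block limited to SAHH-WT and SAHH-het gave 5 in the first. Leaving out each library in turn gave 1 to 5, 1 to 2 and 0 to 2 genes.

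The median change of the members kept its direction in the second comparison and the third under every alternative run. TPM rescaling gave -0.20 for the first and -0.68 for the third, where the median of all genes shifted too. Leaving out each library gave 0.015 to 0.34 for the first, and the exon length correction gave -0.001 with 40 members above 0. TPM rescaling changed the number of members above 0 from 53 to 26, from 4 to 2 and from 16 to 0. Of the members named by the smallest p, those that changed sign were Rpl15 (-0.0065) and Rpl7l1 (-0.039) in the second comparison, and Rpl36 (-0.18), Rpl24 (-0.20), Rpl7l1 (-0.28), Rpl11 (-0.30) and Rplp2 (-0.24) in the third.

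Leaving out each library in turn left 42 to 70 of 83 members above 0 in the first comparison, 3 to 6 in the second and 10 to 17 in the third. Among the named members and ratios the sign changed for the following. The log2 change of Rpl7l1 ranged from -0.043 to 0.15 in the second comparison and from -0.026 to 0.25 in the third, and that of Rplp2 from -0.13 to 0.31 in the third. The log2 ratio of Rpl3l to Rpl3 ranged from -0.22 to 2.77, from -1.71 to 0.93 and from -0.23 to 2.12 in the 3 comparisons. The ratio of Rpl22l1 to Rpl22 ranged from -0.24 to 0.20 in the first and from -0.061 to 0.38 in the third, that of Rps27l to Rps27 from -0.50 to 0.31 in the second, and that of Rpl7l1 to Rpl7 from -0.069 to 0.30 in the first.

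The replicate block, in all groups or in SAHH-WT and SAHH-het only, changed no call of a member. Rpl10l, Rpl36al and Rpl39l were under the filter, and 3 libraries a group allow no exact permutation p under 0.1. The cause of these shifts was not tested, except that TPM rescaling by construction moves every gene of a library alike.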
